A study of Mus musculus with 32 samples.

Results

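The genes described here are 6 carbonic anhydrases, Car2, Car3, Car4, Car5b, Car13 and Car14, out of the 50686 genes of the count table. They were chosen by symbol, each symbol matching 1 Ensembl identifier, and with results of these libraries known: Car3 was selected on the size of its daily swing in expression, and the 5 others belong to the same enzyme family. The levels over the day are therefore a description of these mice, and no test of the day is offered as support for the choice. All 6 passed the filter on low counts, which left 15505 genes.

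Carbonic anhydrases hold a zinc ion with histidine residues and interconvert carbon dioxide and bicarbonate. In a tissue that burns fuel at a high rate the reaction moves carbon dioxide out of the cell, buffers protons, and supplies the bicarbonate that carboxylases of gluconeogenesis and fatty acid synthesis consume. Car2, Car3 and Car13 encode cytosolic forms, Car5b a mitochondrial form, Car4 a form tethered to the outer cell surface by a lipid anchor, and Car14 a form that spans the membrane with its catalytic domain outside. CAR3 is known as a slow hydratase that is abundant in skeletal muscle and fat.

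Brown fat of the interscapular depot (iBAT), a tissue that burns fuel to make heat, came from non-fasted male C57BL/6J mice, 10 weeks old, that ate chow and were kept below thermoneutrality under light and dark phases of equal length. The 8 groups differed in Zeitgeber time (ZT, the hour after the lights went on), every 3 h from ZT0 to ZT21, with 4 mice and 4 libraries each, 32 in all, and all animals were killed by inhalation of carbon dioxide. Whole tissue was used, so fewer cells of a type and less RNA per cell cannot be told apart. Library totals ran from 16300770 to 18254659 counts. Each time point was sequenced on 1 lane (ZT0, ZT3 and ZT6 on lane 2, ZT9, ZT12 and ZT15 on lane 3, ZT18 and ZT21 on lane 4), so lane and time cannot be told apart between lanes. Of the markers of brown adipocytes 11 of 11 were tested, led by Ucp1, and their summed level lay between 3081 and 6988 CPM (counts scaled to library size, with TMM factors). Skeletal muscle markers were also present, 14 of 14, with a summed level from 2.62 to 7981 CPM across libraries.

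The 6 genes share a short motif in their coding sequence. The 33 coding bases around the codons of 2 histidines that hold the zinc ion are shown because they are what unites the set. Capitals mark the 2 histidine codons, which a search of each translated coding sequence for histidine, any residue, histidine, tryptophan found once per gene. Sequences are those of the GENCODE transcripts on GRCm38, 5′ to 3′ on the strand of the gene.
Car3: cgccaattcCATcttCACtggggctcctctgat
Car2: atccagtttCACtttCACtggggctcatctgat
Car13: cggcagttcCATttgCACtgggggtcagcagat
Car5b: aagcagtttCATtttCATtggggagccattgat
Car4: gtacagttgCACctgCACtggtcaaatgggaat
Car14: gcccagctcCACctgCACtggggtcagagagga
The stretches lie in exon 3 of Car3 (chr3:14866841-14866873, plus strand), Car2 (chr3:14895060-14895092, plus) and Car13 (chr3:14650697-14650729, plus). They lie in exon 4 of Car5b (chrX:163991399-163991431, minus), Car4 (chr11:84964158-84964190, plus) and Car14 (chr3:95900294-95900326, minus). Between pairs of genes 16 to 26 of the 33 bases were identical, with the highest number for Car2 and Car3. Over the whole coding sequence 58.6% to 65.5% of aligned bases were identical in the 15 pairs. Of the 10 other carbonic anhydrase genes, 6 held 1 such motif, Car9 held 2, and 3 held none, namely Car8, Car10 and Car11, whose proteins are known as catalytically inactive relatives. No stretch of 50 bases of the Car2, Car3, Car4 or Car13 transcripts occurred in a transcript of another gene, so an exact match of that length assigns a read to 1 of these genes. For Car5b 3.79% of such stretches recurred, in transcripts of 675 genes. For Car14 15.7% recurred, all in Aph1a, which overlaps it on the opposite strand; whether counting used the strand is not stated, so a part of the Car14 counts may belong to Aph1a.

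Car13, Car3 and Car2 sit together. Car13 (ENSMUSG00000027555, chr3:14641727-14663002), Car3 (ENSMUSG00000027559, chr3:14863512-14872523) and Car2 (ENSMUSG00000027562, chr3:14886273-14900770) lie on the plus strand of chromosome 3, with Car1 between Car13 and Car3 on the other strand. Car14 (ENSMUSG00000038526, chr3:95897768-95904691, minus strand) is far away on the same chromosome. Car4 (ENSMUSG00000000805) lies at chr11:84957786-84966044 and Car5b (ENSMUSG00000031373) at chrX:163976822-164027997.

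Car3 was in a class of its own by level. It was the gene with rank 12 of all tested genes by mean CPM and had the same rank by CPM per kb of exon, the scale on which different genes can be compared. Its level was 1936 ± 284 CPM per kb (SD, n = 32), and it alone took between 0.353% and 0.689% of all counts of a library. The next levels were 25.1 ± 3.33 CPM per kb for Car4, 16.1 ± 2.08 for Car13, 9.32 ± 2.69 for Car14, 6.85 ± 1.80 for Car5b and 6.54 ± 0.916 for Car2 (SD, n = 32 each). Car3 was thus 77.1-fold above Car4 and 296-fold above Car2 per length. The levels of Car5b and Car2 differed by less than the SD of either. Those of Car14 and Car5b differed by less than the SD of Car14 but by more than that of Car5b. Of the summed CPM per kb of all 16 carbonic anhydrase genes, Car3 made up from 94.7% to 97.1% in every library.

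**Figure D1:**
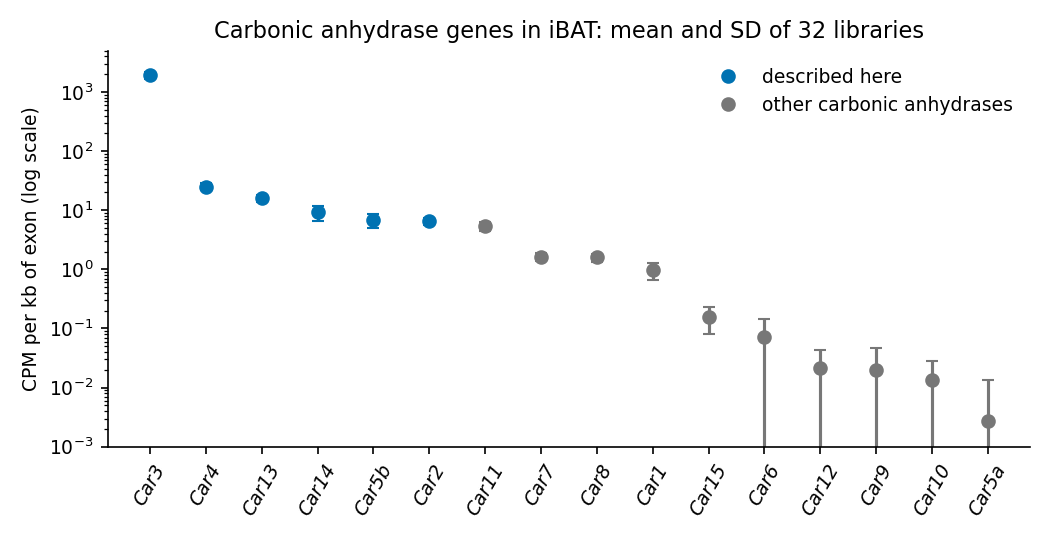
Level of the 16 carbonic anhydrase genes in CPM per kb of exon (log scale), with points for the mean of 32 libraries and bars for the SD; bars that reach the lower edge extend to or below it. Car3 lies at 1936 CPM per kb, and the next gene, Car4, at 25.1.

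Neighbours in the chromosome 3 cluster stood at very different levels. Car1, which lies between Car13 and Car3 and encodes the form of red cells and gut, was counted 8 to 37 times per library (0.980 CPM per kb). Car3 and Car2, whose genes are neighbours on the same strand, differed 296-fold. The flanking genes 1810022K09Rik and Gm9733 stood at 6.30 and 0.0174 CPM per kb. Among the 10 other carbonic anhydrases, Car11 was the highest at 5.49 ± 0.958 CPM per kb (SD, n = 32), and Car5a, the second mitochondrial form, had 2 counts in all 32 libraries together. Car5b was therefore the mitochondrial form that could be measured in this tissue at this depth.

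The first question was how the levels moved over the day. Car3 was highest around lights off and lowest at ZT21 and ZT6. At ZT6 the mice had 3681, 4687, 4717 and 5979 CPM. At ZT9 they had 5923, 5476, 6221 and 6271 CPM. At ZT12 they had 6714, 6568, 6362 and 6565 CPM. The 4 mice of ZT12 lay close together and above all mice of ZT6. At ZT15 the values were 6325, 6989, 5631 and 6354 CPM. At ZT18 they were 4795, 5643, 5220 and 6396 CPM. At ZT21 they were 4723, 4241, 4707 and 5175 CPM. By ZT21 the level had come down, and no mouse of that time point reached the lowest mouse of ZT9, ZT12 or ZT15 (5476 CPM). At ZT0 the values were 5621, 5672, 4216 and 4933 CPM, and at ZT3 5438, 5541, 5390 and 5330 CPM. ZT0 thus spread over both sides of the tight group of ZT3.

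The order of Car3 means was ZT12 (6552 ± 145 CPM), ZT15 (6325 ± 555), ZT9 (5973 ± 365), ZT18 (5513 ± 683), ZT3 (5425 ± 89.2), ZT0 (5110 ± 685), ZT6 (4766 ± 941) and ZT21 (4712 ± 381; SD, n = 4 each). All 7 neighbours in that order overlapped in range, and 9 of the 28 pairs of time points had no overlap between mice. ZT12 was 1.39-fold above ZT21. A 24 h cosine described Car3 with an amplitude of 0.19 ± 0.04 (SE) on the log2 scale, a fold of 1.31 between peak and trough, and a peak at ZT12.7 ± 0.870 h (SE). The range of its 8 log2 means, 0.48, was wider than in 69.9% of the 8527 tested genes whose mean was 10 CPM or more. Of the variance of its log2 CPM, 61.8% lay between time points, against a median of 45.5% over those genes. Car3 was selected on the size of this swing, so its place among the genes is a description that follows from the choice. Both values also hold any difference between lanes.

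**Figure D2:**
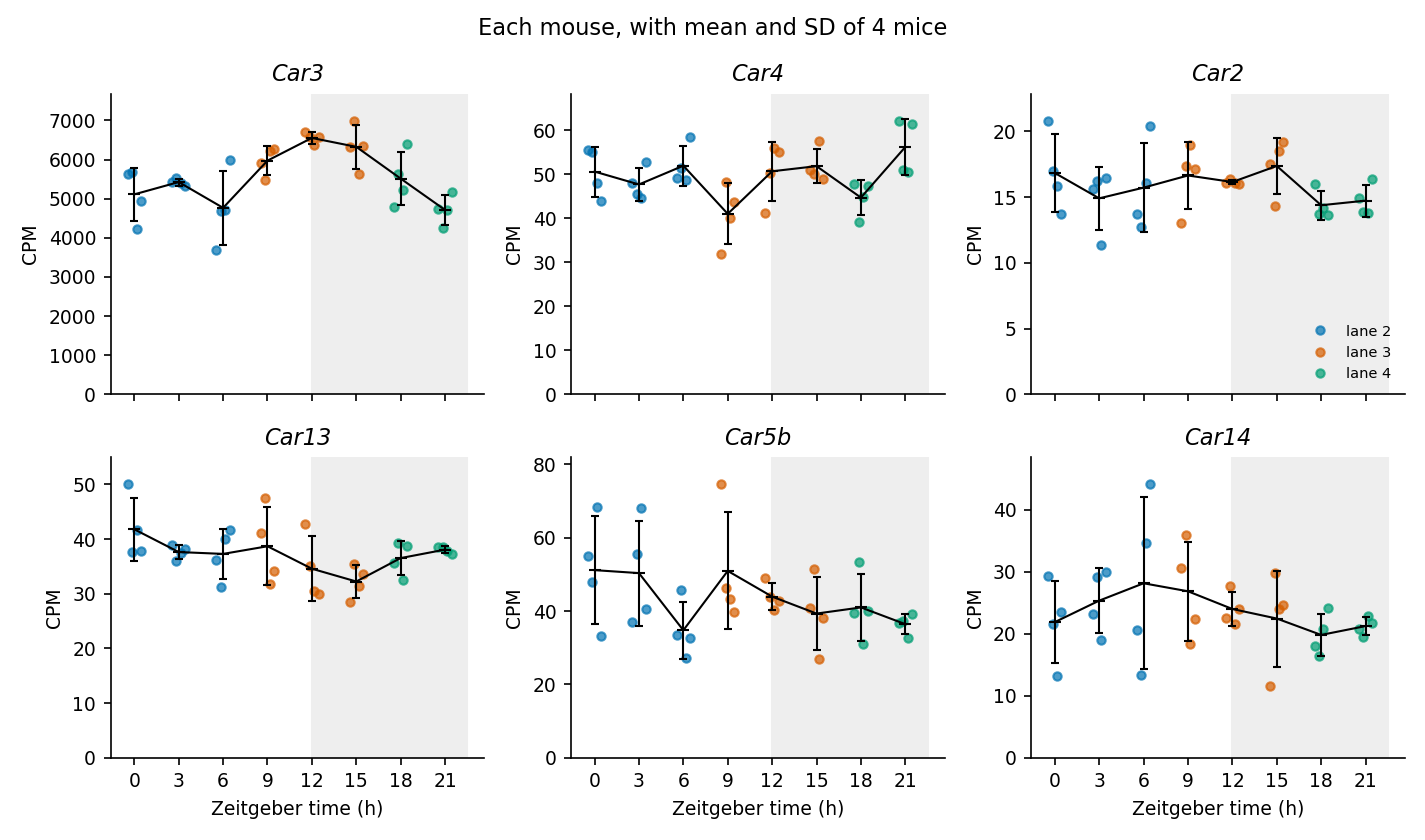
CPM of each gene against Zeitgeber time, 1 point per mouse coloured by sequencing lane, with the mean and SD of 4 mice as black lines and bars and the dark phase shaded. Car3 is highest at ZT12 (6552 CPM) and lowest at ZT21 (4712 CPM). In each panel the mice of the widest time point lie further apart, by ratio, than the highest and lowest means.

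By JTK, the rank test for oscillation that the study used, 1 of the 6 genes passed P under 0.05, Car3, where 36.4% of all tested genes did. In the edgeR test of a 24 h cosine 1 of 6 passed, again Car3, with 36.1% of all tested genes called. In the edgeR test of any difference between the 8 time points 2 of 6 passed, Car3 and Car4, with 39.8% called. Nothing is read from these counts, since the choice of genes used the same time course. The lanes bear on them. Within lane 2 (ZT0, ZT3, ZT6), within lane 3 (ZT9, ZT12, ZT15) and within lane 4 (ZT18, ZT21) edgeR called 0 of 6 genes each, where it called 12.7%, 1.75% and 4.06% of all tested genes. At an unadjusted p under 0.05 the counts were 0, 1 and 2 of 6. With lane as a term beside the cosine 0 of 6 passed in edgeR, and 0 at an unadjusted p under 0.05, with 17.2% of all tested genes called. DESeq2 was run on neither the single lanes nor the fit with lane. The highest 3 means of Car3 were the 3 time points of lane 3, so for this gene the day and the lane cannot be told apart.

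ZT12 was also compared with ZT0, the times at which the study sampled its other mice. ZT0 was on lane 2 and ZT12 on lane 3, so hour and lane cannot be told apart in this comparison. Car3, selected on its daily swing, was higher at ZT12 by 0.36 ± 0.11 (SE) on the log2 scale. Every mouse of ZT12 lay above every mouse of ZT0. In edgeR 1 of 6 genes passed, Car3, with 15.9% of all tested genes called. The call was lost when ZT0 replicate 3, ZT0 replicate 4, ZT12 replicate 2 or ZT12 replicate 4 was left out, with adjusted p from 0.0503 to 0.107 (edgeR), and the log2 difference then lay between 0.28 and 0.36. It was also lost with no filter on low counts (adjusted p = 0.0573, edgeR) and in the 8 libraries of ZT0 and ZT12 alone (0.0646). The other log2 differences were -0.27 ± 0.12 for Car13, -0.22 ± 0.22 for Car5b, 0.13 ± 0.29 for Car14, -0.06 ± 0.14 for Car2 and 0.00 ± 0.11 for Car4 (SE). Without ZT12 replicate 1 Car13 passed as well, at -0.39 and an adjusted p of 0.0247 (edgeR).

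Neither of the other cytosolic forms passed a test of the day over all libraries. Car13, a cytosolic form found in many tissues, had 50.002, 37.7, 41.6 and 37.9 CPM at ZT0, its highest time point. It had 28.5, 35.5, 31.5 and 33.6 CPM at ZT15, its lowest. These 2 groups did not overlap, and their means, 41.8 ± 5.76 and 32.2 ± 2.99 CPM (SD, n = 4 each), differed 1.30-fold. In all, 3 of 28 pairs of time points had no overlap, and the 7 neighbours in the order of means overlapped. The fitted cosine had an amplitude of 0.12 ± 0.04 (SE, log2) and a peak at ZT1.57 ± 1.35 h (SE), so its peak lay on the other side of the day from that of Car3; this difference was not tested. Without ZT12 replicate 1 Car13 passed JTK at a P of 0.0478 and the cosine test, and without ZT9 replicate 2 the cosine test.

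Car2, the fast cytosolic form, had the fewest counts of the set, with 11.4 to 20.8 CPM across libraries (196 to 366 counts). Its mean was highest at ZT15 (17.4 ± 2.16 CPM) and lowest at ZT18 (14.4 ± 1.09 CPM; SD, n = 4 each), a fold of 1.21, and mice of those time points overlapped. The cosine amplitude was 0.06 ± 0.05 (SE, log2). At ZT12 its 4 mice had 16.1, 16.4, 16.1 and 16.0 CPM, within 1.02-fold of each other. At ZT6 they had 13.7, 12.7, 16.0 and 20.4 CPM, 1.60-fold apart. The SD of log2 CPM was 0.015 at ZT12 and 0.30 at ZT6, where counting reads alone would give 0.09. The values of ZT12 thus lay closer together than counting noise, so no likeness of the mice at that hour is read from them.

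Car4, the form at the outer cell surface and in capillary walls, was the other gene past the threshold for any difference between time points, with no single rise and fall. It had 62.2, 51.0, 50.4 and 61.3 CPM at ZT21. At ZT18, on the same lane, it had 47.8, 39.1, 44.7 and 47.3 CPM. All mice of ZT21 lay above all mice of ZT18. At ZT9 it had 32.0, 48.3, 40.0 and 43.8 CPM, its lowest mean (41.0 ± 6.92 CPM, SD, n = 4), 1.37-fold below ZT21 (56.2 ± 6.39). The neighbours in the order of means overlapped, and 6 of 28 pairs of time points did not. The cosine amplitude was 0.08 ± 0.05 (SE, log2). The call was lost with library size alone in place of TMM factors (adjusted p = 0.0894, edgeR) and with no filter on low counts (0.0514). It was also lost without ZT9 replicate 1 or 3, ZT18 replicate 2 or 3, or ZT21 replicate 1 or 4, with adjusted p from 0.0502 to 0.0783 (edgeR). Endothelial markers, 8 of 8 tested, varied as well, with a summed level of 965 to 976 CPM at ZT21, 1010 to 1160 at ZT18 and 839 to 1017 at ZT9.

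Car5b and Car14 had the widest spread between mice of the set. Car5b, the mitochondrial form, had 55.1, 48.1, 68.3 and 33.2 CPM at ZT0, its highest mean (51.2 ± 14.6 CPM, SD, n = 4). At ZT6, its lowest, it had 33.6, 45.7, 27.2 and 32.6 CPM (34.8 ± 7.78). The groups overlapped although the means differed 1.47-fold. Across all libraries it ran from 27.0 to 74.5 CPM, 2.76-fold. Car14, the transmembrane form, had 20.5, 13.3, 34.6 and 44.1 CPM at ZT6, so 3.31-fold apart among mice of 1 time point, against 1.17-fold at ZT21 (20.8, 19.5, 22.8 and 21.7 CPM). None of its 28 pairs of time points was free of overlap, and 12.2% of the variance of its log2 CPM lay between time points, against 21.3% for Car2, 32.0% for Car5b, 32.97% for Car13 and 47.7% for Car4, where the median over genes of 10 CPM or more was 45.5%. These shares, like that of Car3, are not corrected for the number of time points, so spread between mice alone already gives a part of each. Without ZT6 replicate 2 Car14 passed the cosine test, with an adjusted p of 0.0407 (edgeR).

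The spread between mice of the same time point ordered the genes in another way than their level. The pooled SD of log2 CPM within time points was 0.44 for Car14, 0.33 for Car5b, 0.20 for Car2, 0.17 for Car13, 0.16 for Car4 and 0.16 for Car3. Counting reads alone would give 0.07 for Car14 and 0.05 for Car5b. The SD of Car14 exceeded that of 96.5% of the same 8527 genes, and that of Car5b 93.1%. Car3, with 59.7% of those genes below it, was close to the median of 0.14.

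**Figure D3:**
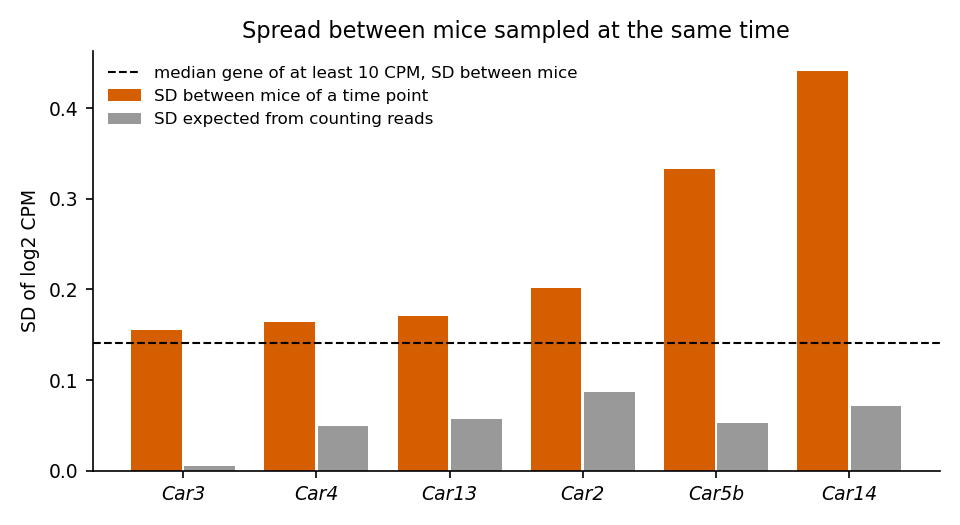
Pooled SD of log2 CPM between mice of the same time point (orange) and the SD that counting reads alone gives (grey) for each gene, with the median SD between mice of the 8527 tested genes of at least 10 CPM as a dashed line. Car14 (0.44) and Car5b (0.33) stand well above the line, and Car3 (0.16) lies near it.

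Mice of the same time point share hour and lane, so relations between their deviations from the time-point mean use neither. Of a family of 24 relations, 15 between pairs of the 6 genes and 9 with other genes or marker lists, 2 passed a permutation of mice within time points (100000 resamples, two-sided, Benjamini-Hochberg adjusted over the 24). Mice with more Car2 had more Car4 (Pearson's r = 0.58, permutation p = 0.00078, adjusted 0.0187; Spearman's rho = 0.59, permutation p = 0.00143, adjusted 0.0343), with the same sign in 7 of 8 time points. Within lanes r was 0.75 (lane 2, n = 12, exact permutation p = 0.0127), 0.49 (lane 3, n = 12, exact p = 0.206) and 0.70 (lane 4, n = 8, exact p = 0.0851). With the 2 mice of most extreme Car2 left out, r was 0.55 (permutation p = 0.00846, adjusted 0.102).

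Mice with more Car13 had more Car14 (r = 0.59, permutation p = 0.00285, adjusted 0.0342; rho = 0.61, permutation p = 0.00359, adjusted 0.0431), with the same sign in 5 of 8 time points. Within lanes r was 0.66 (lane 2, n = 12, exact p = 0.0783), 0.67 (lane 3, n = 12, exact p = 0.0116) and -0.14 (lane 4, n = 8, exact p = 0.797). With the 2 mice of most extreme Car13 left out, r was 0.66 (permutation p = 0.00343, adjusted 0.0823). The adjustment was made anew over the 24 relations, in which this p was then the smallest. The adjusted p of Car13 and Car14 missed the threshold in 12 of 32 fits that left out 1 library, 11 of them of ZT6, ZT9 or ZT15, and reached 0.132 without ZT15 replicate 1, while r stayed between 0.52 and 0.68. That of Car2 and Car4 missed it without ZT6 replicate 4 (0.0790) or ZT9 replicate 1 (0.0648), and r stayed between 0.48 and 0.63. With replicate number as an added term both relations missed it, each with an adjusted permutation p of 0.0514.

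**Figure D4:**
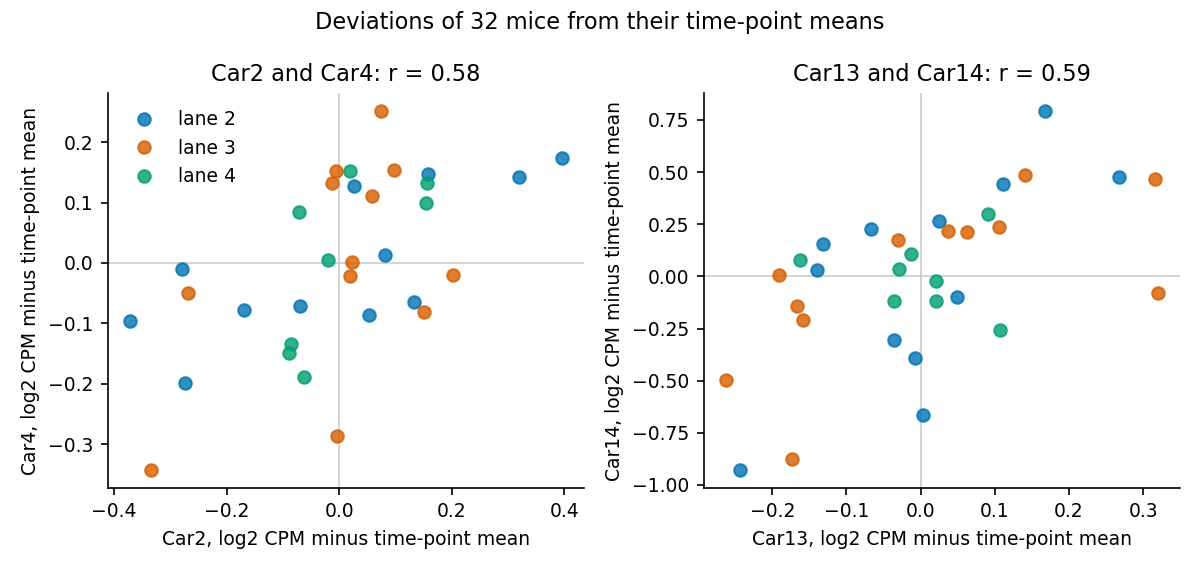
Deviation of log2 CPM from the time-point mean for 32 mice, Car4 against Car2 (left, r = 0.58) and Car14 against Car13 (right, r = 0.59), with points coloured by lane. In the left panel most mice fall in the lower left and upper right. In the right panel the mice of ZT6 and ZT9 do so, those of ZT21 do not, and the others are divided. The range is wider for Car14 than for the other genes.

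No relation of Car3 with the other genes passed between mice. With Car2, its neighbour on the chromosome, r was 0.30 (permutation p = 0.235, adjusted 0.446; rho = 0.32), and with Car13, the third gene of the cluster, 0.16 (permutation p = 0.448, adjusted 0.597; rho = 0.25). With Lpl, the lipase that releases fatty acids for uptake, r was 0.47 (permutation p = 0.0316, adjusted 0.204; rho = 0.39), and with Acly, the enzyme that makes acetyl-CoA for fatty acid synthesis, -0.45 (permutation p = 0.0625, adjusted 0.2999; rho = -0.30). With Ucp1, the uncoupling protein of brown fat, r was 0.08 (permutation p = 0.699, adjusted 0.846; rho = 0.08), and with Angptl4, an inhibitor of LPL, 0.30 (permutation p = 0.157, adjusted 0.419; rho = 0.16). The highest r with another gene of the set was 0.41, with Car14 (permutation p = 0.133, adjusted 0.399; rho = 0.31). None of these passed after adjustment. With library size alone in place of TMM factors Acly passed (r = -0.64, adjusted permutation p = 0.0167), and without ZT0 replicate 3 Lpl did (r = 0.57, adjusted permutation p = 0.0340).

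Car3 is also a gene of skeletal muscle and white fat, so markers of both were read beside it. The summed level of 14 muscle markers ran from 4.75 to 5477 CPM at ZT0, from 19.8 to 7410 at ZT12, from 761 to 7981 at ZT15 and from 29.0 to 3258 at ZT21, and none of the 14 was at 0 throughout. Between mice of the same time point the muscle sum and Car3 had an r of -0.05 (permutation p = 0.821, adjusted 0.856; rho = -0.08), and for Car14 r was -0.24 (permutation p = 0.244, adjusted 0.446; rho = -0.10). In an edgeR fit with time point and the muscle sum as a covariate, 0 of the 6 genes had a slope past the threshold, where 3.18% of all tested genes did, and 1 of 6, Car2, passed at an unadjusted p under 0.05. The log2 difference of Car3 between ZT12 and ZT0 was 0.36 in that fit. White adipocyte markers, 6 of 8 tested, are less specific: the depot genes Hoxc9 and Hoxc10 failed the filter, and the sum was led by Lep, which brown fat can express. Their sum was lowest at ZT6 (57.7 to 88.9 CPM) and highest at ZT15 (221 to 364), with means of 179 CPM at ZT0, 131 at ZT3, 73.8 at ZT6, 207 at ZT9, 211 at ZT12, 268 at ZT15, 198 at ZT18 and 113 at ZT21. The 4 highest means were those of ZT9, ZT12, ZT15 and ZT18, which were also the 4 highest of Car3. Lep itself ran from 23.8 ± 5.82 CPM at ZT6 to 199 ± 56.3 at ZT15 (SD, n = 4 each), while Nnmt, Slc7a10 and Hoxc8 were highest at ZT9 and Retn and Agt at ZT3. The part of these markers in the course of Car3 was not tested. Between mice of the same time point their r with Car3 was -0.05 (permutation p = 0.788, adjusted 0.856; rho = -0.08). For Car2 and the red cell markers r was -0.01 (permutation p = 0.961; rho = 0.01), and for Car4 and the endothelial markers 0.43 (permutation p = 0.0340, adjusted 0.204; rho = 0.36). The latter passed with library size alone (r = 0.59, adjusted permutation p = 0.0169) and without ZT0 replicate 4 (r = 0.55, adjusted 0.0251 by permutation). Without that mouse Car5b was inversely related to Car2 (r = -0.59, adjusted permutation p = 0.0358) and to Car4 (r = -0.54, adjusted permutation p = 0.0251), which over all mice had r of -0.39 and -0.35 (adjusted permutation p = 0.310 for both).

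The genes most like each carbonic anhydrase over the 32 libraries, among 8526 with a mean of at least 10 CPM, are given as a description with no test; libraries of 1 time point share lane and hour. For Car3 they were Bcat2, the mitochondrial aminotransferase of branched-chain amino acids (r = 0.81), Hexa, a lysosomal hexosaminidase (0.79), Lpl (0.79), Dmac2, a complex I assembly factor (0.79), and Cidec, a lipid droplet protein (0.78). After removal of the time-point means r fell to 0.75 for Bcat2, 0.47 for Lpl and 0.41 for Cidec. For Car13 they were Slc25a17, a peroxisomal carrier (0.82), Sfxn5, a mitochondrial sideroflexin (0.81), and Txndc12 (0.80), and within time points r was 0.84 for Slc25a17. For Car5b they were Retn, the adipokine resistin (0.79), Cp, ceruloplasmin (0.75), and Itm2b (0.72). For Car4 they were Pkp4 (0.75), Pbld1 (0.67) and Map4k2 (0.58), and for Car2 S100a1 (0.69), S100a13 (0.65) and Vipas39 (0.65).

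For Car14 the most alike gene was also its neighbour. BC028528 (chr3:95883954-95892005, minus strand) lies 5763 bases from Car14, with Aph1a (chr3:95893969-95898288, plus strand), a subunit of gamma-secretase, between them and overlapping the end of Car14. Over the 32 libraries BC028528 had an r of 0.69 with Car14, and over the 8 time-point means -0.08. Within time points the r of BC028528 with Car14 was 0.85, and that of Aph1a 0.68. The SD between mice was 0.44 on the log2 scale for Car14, 0.27 for BC028528 and 0.10 for Aph1a, with the widest range in Car14 (11.5 to 44.1 CPM) and the narrowest, by ratio, in Aph1a (28.1 to 48.3 CPM). BC028528 shares no stretch of 50 bases with Car14. The next genes over the 32 libraries were Mmd2 (0.69) and Pgap2 (0.68), and within time points their r was 0.72 and 0.80.

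The partners of carbonic anhydrases in the cell were counted in 3 lists, with the 24 h cosine test of edgeR. Of the 10 other carbonic anhydrases 4 passed the filter and 0 the cosine test, also in DESeq2, where edgeR called 36.1% of all tested genes. At an unadjusted p under 0.05 the cosine test of edgeR called 1. For any difference between time points 1 of the 4 passed, Car11, where 39.8% of all tested genes did. Car11 had 8.04 ± 0.666 CPM at ZT3 and 12.3 ± 1.19 at ZT12 (SD, n = 4 each). Of 19 genes listed for the transport of bicarbonate, protons, lactate and carbon dioxide, 16 were tested. The list takes in a few partners that are no carriers themselves, such as the chaperone Bsg and the bicarbonate-sensing cyclase Adcy10. The cosine test called 6 of the 16, against 36.1% of all tested genes, and JTK called 7, against 36.4%. Slc4a8, a sodium-driven bicarbonate exchanger, rose from 3.81 ± 0.407 CPM at ZT0 to 11.3 ± 1.36 at ZT12 (cosine adjusted p = 3.1e-05, beside lane 0.0111, edgeR). Slc4a4, the electrogenic sodium bicarbonate cotransporter, was highest at ZT9 (362 ± 171 CPM) and lowest at ZT18 (105 ± 39.6; adjusted p = 0.00753, beside lane 0.253, edgeR). Slc16a1, the monocarboxylate carrier that moves lactate with a proton, ran the other way, with 418 ± 25.0 CPM at ZT21 and 189 ± 42.3 at ZT12 (adjusted p = 3.7e-07, beside lane 0.121, edgeR). Slc4a3 and Slc16a7 passed as well. With lane as a term 4 of 16 passed, Slc4a2, Slc4a3, Slc4a8 and Slc26a6, against 17.2% of all tested genes. Aqp1, a water channel that also conducts carbon dioxide and the most abundant of the list, had an adjusted p of 0.0990 (edgeR). Over the 3 lists together the cosine test called 7 genes, and 11 with library size alone in place of TMM factors. Calls among all tested genes went from 5602 to 5269.

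The list of enzymes that use bicarbonate held 9 genes, 7 carboxylases and 2 carbamoyl-phosphate synthetases, Cad and Cps1, and 8 were tested, without Cps1. The 1 that passed the cosine test was Cad, the first enzyme of pyrimidine synthesis and no carboxylase, which rose from 37.2 ± 1.63 CPM at ZT0 to 74.3 ± 13.0 at ZT9 (adjusted p = 3.6e-06, beside lane 0.00011, edgeR). DESeq2 called 2 of the 8, 3 had an unadjusted p under 0.05 in edgeR, and JTK called 2, Cad and Acaca, where the cosine test called 36.1% and JTK 36.4% of all tested genes. The latter, acetyl-CoA carboxylase, was the most abundant of them and had 1168 ± 559 CPM at ZT15 and 2661 ± 378 at ZT21, with a JTK P of 0.0359 and a cosine adjusted p of 0.0516 (edgeR). Pcx, the pyruvate carboxylase that draws on mitochondrial bicarbonate, had 919 ± 104 CPM at ZT9 and 1053 ± 69.8 at ZT18 (adjusted p = 0.481, edgeR; SD, n = 4 each).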

How the data were processed

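RNA-seq counts of 32 iBAT libraries (stranded, 100 bases, paired ends) were used. The authors mapped reads to mm10 with GSNAP and counted reads per Ensembl gene with HTSeq (0.6.1); the deposited values are raw counts, with no normalization. Each library was taken as 1 mouse, so p-values measure the spread between these mice. Genes were filtered with filterByExpr and scaled by TMM in edgeR 4.0.16 (R 4.3.3), which left 15505 genes with 99.9% of counts; none of the 48 pairs of libraries of the same time point agreed within counting noise. edgeR's quasi-likelihood test with Benjamini-Hochberg adjustment and a threshold of 0.05 tested a 24 h cosine, time point, time within lane, the cosine beside lane, and ZT12 against ZT0; DESeq2 1.42.0 was an alternative. An own JTK_CYCLE used templates of 21 and 24 h. Log2 CPM had a prior count of 2. Scripts were tested on simulated data. Coordinates, lengths and sequences are from GENCODE on GRCm38, not the annotation release of the counting. The genes, gene lists and relations were chosen with earlier results of these data known; named genes are the 6, the lists' genes, and the 5 (Car3) or 3 most correlated. Aph1a and the covariate fit with muscle markers were added after the data were seen. Marker lists of stroma, macrophages and Schwann cells were scored and had 5 of 6, 3 of 5 and 0 of 4 tested genes past the cosine test, against 36.1% of all tested genes (for the last, 1 at an unadjusted p under 0.05 and 0 in DESeq2); brown adipocytes had 1 of 11, white adipocytes 3 of 6, endothelium 4 of 8, muscle 0 of 14 and red cells 0 of 7 (both 0 unadjusted and in DESeq2). Proteins were not analysed here, and 1 listed gene is not reported here.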

Additional observations from a re-analysis of the deposited data

Results flagged for a closer look

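Among the 48 sets of 4 mice, 6 genes at 8 time points, 1 had a mouse far from the other 3, where chance alone gives about 1 in 20 sets. At ZT3 replicate 3 Car2 stood at 11.4 CPM, below the other 3 mice of that time point, which lay between 15.6 and 16.5 CPM. Car4 in the same mouse was the lowest of its time point too, at 44.5 CPM.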

How the results depend on the processing

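Counts of the 6 genes past each threshold were recomputed with DESeq2 size factors, library size alone, no mitochondrially encoded genes, no filter, a replicate block, DESeq2 as the test, and without each library. The count by the cosine (1) was the same under each of these that keeps all libraries. The count by JTK (1), which has no block or DESeq2 fit, and the counts within lanes (0) and beside lane (0), not run in DESeq2, were the same under the others. The count between time points fell from 2 to 1 with library size alone (Car4 adjusted p 0.0894) and with no filter (0.0514), and the count for ZT12 against ZT0 fell from 1 to 0 with no filter (Car3 0.0573) and in the 8 libraries alone (0.0646). The transport genes (16 tested), bicarbonate-using enzymes (8) and other carbonic anhydrases (4) past the cosine test rose from 7 to 11 with library size alone. Calls among all 15505 tested genes went from 5602 (36.1%) to 5269 with that change. Later counts of these pathway genes are given without the calls among all tested genes, so nothing is read from them. The count of relations was 4 with library size alone, where Car4 with endothelial markers (r = 0.59) and Car3 with Acly (r = -0.64) passed too, and 0 without the 2 farthest libraries. Leaving out single libraries gave counts from 1 to 2 by JTK, 1 to 2 by the cosine, 1 to 2 between time points, 0 to 2 for ZT12 against ZT0, 7 to 10 pathway genes and 0 to 5 relations. With muscle markers as a covariate, added after seeing the data, the counts were 1 by the cosine, 2 between time points, 1 for ZT12 against ZT0 and 9 pathway genes. The cause of these changes was not tested.

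With a replicate block the counts by the cosine (1) and between time points (2) stayed, and 0 relations passed (adjusted p 0.0514 for Car2 with Car4 and for Car13 with Car14). Replicate numbers do not pair the mice: deviations of 112 same-numbered pairs correlated from -0.73 to 0.77, with a median of -0.12.

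The signs that turned belong to values that passed no test. For Car4 between ZT12 and ZT0 the log2 difference was -0.000605 without mitochondrial genes, -0.00147 with no filter and -0.00300 with the block. With library size alone r was 0.0126 for Car3 with muscle, 0.164 with white adipocytes, 0.102 for Car2 with red cells and -0.0133 for Car3 with Ucp1. For Car2 with red cells it was 0.0117 as rho and 0.0760 with the block. Without the 2 farthest libraries r was -0.12 for Car3 with Ucp1 and 0.24 for Car4 with Car13. Leaving out single libraries gave log2 differences from -0.0598 to 0.0890 for Car4, -0.145 to 0.0583 for Car2 and -0.0444 to 0.305 for Car14, and r from -0.0168 to 0.238 for Car3 with Car5b, -0.299 to 0.111 for Car4 with Car13, -0.169 to 0.0452 for Car3 with muscle, -0.186 to 0.0644 with white adipocytes, -0.183 to 0.125 for Car2 with red cells and -0.112 to 0.162 for Car3 with Ucp1.

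Depth limits Car2 most, with 196 counts in its lowest library, and the levels of Car5a, Car6, Car9, Car10 and Car12, each with libraries at 0.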
